A study of Mus musculus with 12 samples.

Results

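The stretches of the genome where β-catenin binding was called most densely in mouse forelimb buds are described here. How many such stretches random placement would give was not tested. Of 16189 β-catenin summits on chromosomes 1 to 19 and X in the DMSO consensus list, 1091 (6.74%) lay in 150 clusters of 6 or more summits. A summit is the position of highest coverage within a called peak. Summits were joined into a cluster when the next one was at most 25 kb away, so the cluster size, the spacing and the DMSO signal are properties the selection used and are given as a description, without a test. The remaining summits formed 3113 clusters of 2 to 5 (7796 summits) or were single (7302 summits).

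β-Catenin is the nuclear effector of canonical WNT signaling. In the absence of WNT ligands it is degraded, whereas in their presence it enters the nucleus and is brought to chromatin by DNA-binding TCF/LEF proteins. In the limb, WNT signals help to pattern the bud along its axes and delay cartilage formation near the surface. Developmental regulators are often surrounded by arrays of cis-regulatory modules (CRMs), short regions that control a gene from within introns or from afar, and acetylation of histone H3 at lysine 27 (H3K27ac) marks active promoters and CRMs.

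The buds came from wild-type Swiss Albino embryos whose mothers were injected at E10.5 with C59, an inhibitor of the porcupine enzyme that WNT ligands need for secretion, or with DMSO as the control. Forelimb buds were dissected 6 h later and pooled for each replicate, and β-catenin and H3K27ac ChIP-seq were done with 2 replicates per antibody and treatment. All samples share the genotype, the stage and the formaldehyde crosslink, and the β-catenin samples had a second crosslink with disuccinimidyl glutarate. Whole buds hold ectoderm, vessels, muscle precursors and nerves besides mesenchyme, so a weak peak in all cells and a strong peak in few cells cannot be told apart. H3K27ac covered the starts of 3 of 3 limb bud genes checked (Tbx5, Prrx1 and Lmx1b) in each of the 4 H3K27ac libraries. Of 2 hindlimb genes it covered the start of Tbx4 but not that of Pitx1. For markers of other cell types the starts of 2 to 3 of 6 muscle precursor genes, 3 of 7 endothelial and 1 to 2 of 6 ectodermal genes were covered, with overlap between DMSO and C59. Of 7 blood genes 1 was covered in both DMSO libraries and 2 in both C59 libraries, and the same numbers held for 6 neural crest and nerve genes. Of 32 marker genes of muscle, endothelium, blood, nerve and ectoderm, none was overlapped by a cluster or was the nearest gene of one, where 1.73% of all 21728 protein-coding genes were, so a count of 0 is near that background.

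Replicate libraries of β-catenin held 20148 and 25765 summits after DMSO and 283 and 315 after C59 on these chromosomes. Their depth, solved from the fold enrichment and p-value of the peaks, was 2.93 and 3.39 Gb of fragments for DMSO and 3.42 and 3.40 Gb for C59, so the C59 libraries were not the shallower ones. The H3K27ac libraries held between 33120 and 37869 summits.

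The sequences below show what a TCF/LEF core looks like in the largest clusters. For each of the 10 clusters with the most summits, the summit of highest fold enrichment with a core in the 200 bp window centred on it was taken. The core is ATCAAAG or TTCAAAG on either strand. It is in capitals, with 40 bases on each side, read 5′ to 3′ on the plus strand of mm10 (RefSeq GRCm38.p6), so that a core of the minus strand reads CTTTGAT or CTTTGAA. The pair of clusters in that group that were also found after C59, described further on, is not shown.
Dnm3, chr1:162020889-162020975: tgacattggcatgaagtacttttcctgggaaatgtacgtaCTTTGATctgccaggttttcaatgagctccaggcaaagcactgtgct
Hoxd, chr2:74760293-74760379: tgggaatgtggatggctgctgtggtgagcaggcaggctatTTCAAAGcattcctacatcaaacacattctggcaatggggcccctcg
Cep162 to Tbx18, chr9:87377118-87377204: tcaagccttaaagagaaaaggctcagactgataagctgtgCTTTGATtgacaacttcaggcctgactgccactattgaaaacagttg
Hdac9, chr12:34581541-34581627: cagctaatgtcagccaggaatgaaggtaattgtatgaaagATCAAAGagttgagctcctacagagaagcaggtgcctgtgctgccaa
Slc38a6 to Tmem30b, chr12:73521614-73521700: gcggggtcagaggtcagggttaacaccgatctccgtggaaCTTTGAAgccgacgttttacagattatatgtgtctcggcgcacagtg
Mycn to Ddx1, chr12:13066989-13067075: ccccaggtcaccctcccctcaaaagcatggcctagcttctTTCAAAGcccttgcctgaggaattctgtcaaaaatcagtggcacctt
Opa1 to Hes1, chr16:29918063-29918149: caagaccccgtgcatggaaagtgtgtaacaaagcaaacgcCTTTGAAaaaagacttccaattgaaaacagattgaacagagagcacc
Hoxa, chr6:52190886-52190972: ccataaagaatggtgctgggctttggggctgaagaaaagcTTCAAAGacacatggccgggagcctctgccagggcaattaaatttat

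The core lay between 8 and 58 bp from the summit in these 8 windows, as counted from its centre. The summits were intronic in Dnm3, Hdac9 and the Hoxa locus and lay outside protein-coding genes in the other 5. None of these 8 summits was inside a DMSO H3K27ac peak or a C59 β-catenin consensus peak. Fold enrichment is the coverage at the summit over the background expected at that position from the same library. This background differs between positions, so fold does not rank summits by coverage alone. Fold enrichment was 8.35 and 8.62 in DMSO replicates 1 and 2 at the Dnm3 site, 14.3 and 15.3 at the Hdac9 site, and 14.02 and 15.1 at the site between Cep162 and Tbx18. The replicates of DMSO gave similar values at each of these sites.

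A second set was chosen after the values were seen, because it shows cores in clusters that overlap or flank genes of the lists below. The overlapped genes were Axin2, a feedback inhibitor of WNT signaling, and Msx1, a homeobox gene of the limb mesenchyme and ectoderm. The nearest genes of the other cluster were Bmp4, which encodes a BMP ligand and was 176 kb away, and Cdkn3.
Axin2, chr11:108947601-108947687: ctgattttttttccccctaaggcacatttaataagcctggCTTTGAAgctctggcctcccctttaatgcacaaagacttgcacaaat
Msx1, chr5:37826902-37826988: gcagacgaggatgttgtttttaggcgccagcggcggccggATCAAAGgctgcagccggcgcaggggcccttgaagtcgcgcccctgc
Bmp4 to Cdkn3, chr14:46606082-46606168: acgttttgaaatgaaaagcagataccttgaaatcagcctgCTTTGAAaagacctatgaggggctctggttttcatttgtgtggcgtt

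The Axin2 site lay in an intron, 5 bp from its summit, with a fold enrichment of 17.1 and 16.7 in the DMSO replicates. The Msx1 site was intergenic and had a fold enrichment of 13.0 and 15.9. At the site towards Bmp4 it was weaker, with 5.11 and 6.27, and the core was 68 bp from the summit.

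Clusters had a median of 7 summits (range 6 to 26). The span, from the first to the last summit, had a median of 47.6 kb (3.001 to 109 kb), and all spans together made up 7277 kb or 0.276% of these chromosomes. The selection limit ran through a continuous distribution, since 73 clusters had exactly 6 summits while 121 clusters of 5 and 268 clusters of 4 fell just outside. The widest gap that was joined measured 24938 bp and the narrowest gap that was not measured 25007 bp. Neighbouring summits of a cluster were a median of 5873 bp apart, and 226 of 941 neighbouring pairs lay within 1 continuous peak region. The 1091 summits thus stood in 865 separate peak regions, and 78 clusters had 6 or more such regions. Within a cluster the strongest summit had a fold enrichment 1.34 to 7.82 times that of the weakest, with a median of 3.29.

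**Figure D1:**
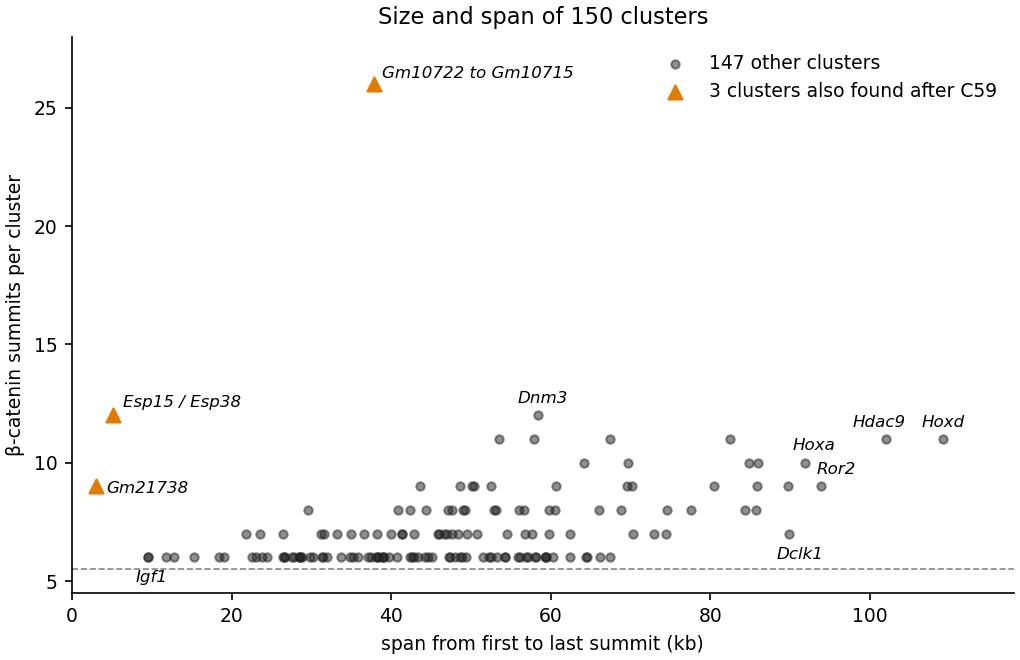
Number of β-catenin summits (vertical axis) against the span from first to last summit in kb (horizontal axis) for 150 clusters. Each point is a cluster, triangles are the 3 clusters also found after C59, and the dashed line is the limit of 6 summits. The Hoxd cluster had the longest span, 109 kb, and apart from the triangles no cluster had more than 12 summits.

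A group of 3 clusters stood apart before any other comparison, since the same rule also finds them in the C59 list. The largest cluster of all, chr9:3000179-3038021, held 26 summits over 37.8 kb at the start of chromosome 9, across Gm10722 and 8 other predicted genes. A median of 99.3% of its 200 bp windows was marked as repeats in the reference. The cluster at chr17:39843433-39848550 held 12 summits over 5.12 kb, across an annotated ribosomal RNA gene between Esp15 and Esp38, with a median of 5.5% of the window in repeats, and the one at chr14:19415834-19418835 held 9 summits over 3.001 kb at Gm21738, with 87% of the window in repeats. They were the 3 densest clusters, with 6.87, 23.5 and 29.99 summits per 10 kb. Of their 47 summits, 45 lay inside C59 β-catenin peaks and 45 inside DMSO H3K27ac peaks, and 2 had a TCF/LEF core. Counts per library were 28, 31, 33 and 27 in the chromosome 9 cluster for DMSO replicates 1 and 2 and C59 replicates 1 and 2. In the chromosome 17 cluster they were 11, 13, 11 and 15, and in the chromosome 14 cluster 6, 8, 6 and 6. DMSO and C59 libraries thus overlapped in all 3. How far mapping bears on these clusters was not tested. Shares over all clusters are given below with and without them.

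A further pair of clusters lay on arrays of small RNA genes. All 9 summits of the cluster in Tex14 (chr11:87422978-87471639) and all 6 of the cluster at Rdm1 (chr11:101627361-101658696) had a transcription start site (TSS) within 1 kb, and 11 and 4 small nuclear or nucleolar RNA genes, such as Rnu3b1 and Rnu2-10, lie there. A median of 51% and 40.8% of the windows was marked as repeats, and whether near-identical copies of such genes bear on these summits was not tested.

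**Figure D2:**
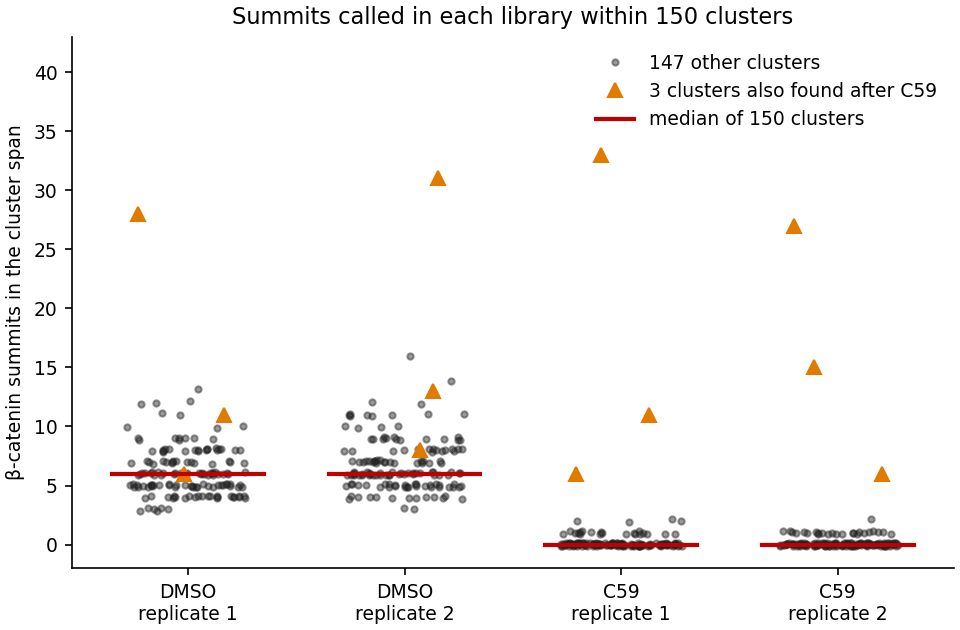
β-Catenin summits called in each replicate library (vertical axis) within the spans of the 150 clusters, one point per cluster, with a small random shift of the points for visibility. The red line is the median, which was 6 in both DMSO libraries and 0 in both C59 libraries; triangles are the 3 clusters also found after C59.

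Summits within the spans numbered 954 and 1050 in the DMSO replicates and 78 and 74 in the C59 replicates. Without the 3 clusters these counts were 909 and 998 against 28 and 26. Every DMSO replicate had at least 3 summits in every cluster, and 70 of 150 clusters reached 6 summits in both replicates taken alone. The same rule applied to a single DMSO replicate gave 202 clusters with replicate 1 and 350 with replicate 2. All 1091 summits were inside peaks of both DMSO replicates, which the consensus step requires. Because clusters were selected on the DMSO signal, the lower counts after C59 are a description and carry no test. In 112 clusters neither C59 library had a summit within the span.

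After C59, 66 of the 1091 summits (6.05%) were inside a consensus β-catenin peak, against 1.12% of all 16189 summits. Without the 3 clusters the share was 21 of 1044 (2.01%), compared with 0.898% in clusters of 2 to 5 and 0.630% of single summits. A share of 1.12% is the background that includes the selected clusters, and nothing is read from the difference because the selection used DMSO binding, which every summit compared here has.

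The 21 summits lay in 18 clusters, of which 16 had 1, the Scube1 cluster 2 and the Axin2 cluster 3. At 20 of these 21 summits both C59 replicates had a peak that held the position, and there the mean C59 fold enrichment was a median of 0.394 times the mean DMSO value (range 0.246 to 1.11). The summits were selected for their DMSO signal, so this ratio is a description. In the 3 clusters also found after C59 the same ratio had a median of 1.09 over 45 summits (range 0.553 to 1.54).

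The strongest summit of any cluster was at chr8:26961472, near Zfp703, which encodes a zinc finger transcriptional regulator. Its fold enrichment was 34.3 and 34.5 in the DMSO replicates and 8.48 and 12.3 in the C59 replicates. It was picked for its DMSO value, and nothing is read from the difference. A core lay in its window. At Trps1, a GATA-type zinc finger gene of cartilage and hair development, the summit that remained had 24.5 and 22.4 after DMSO and 8.59 and 10.4 after C59. At Scube1, a secreted and membrane-bound glycoprotein gene, the stronger of the pair had 24.1 and 27.9 against 7.07 and 7.36.

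The 3 Axin2 summits inside a C59 consensus peak were less than 1 kb from a TSS, as was 1 that was not inside one. At chr11:108920428 fold enrichment was 9.68 and 9.08 after DMSO and 4.67 and 6.61 after C59, and at chr11:108921258 it was 10 and 12.3 against 4.14 and 3.83. At chr11:108920817 it was 6.27 and 6.06 after DMSO. There the C59 consensus peak held the position, but no peak of either C59 replicate did. The strongest Axin2 summit, at chr11:108947649 in an intron, had no C59 peak in either replicate, and neither had the summit at chr11:108961787 with 15.1 and 15.6 after DMSO. Among the Axin2 summits near a TSS, that at chr11:108923095, with 2.80 and 3.07 after DMSO, also had no C59 peak. The other clusters with 1 remaining summit lay in or next to Gmds, Zfp608, Slc14a2, Dnm3, Mvb12b, Lrmda, Lix1 and Tex14, or had as nearest genes Ispd and Meox2, Robo2 and Lipi, Npvf and Nfe2l3, Thap1 and Zfp703, Tbx18 and Nt5e, or Tcf7l2 and Habp2. The summit at Tex14, in the small RNA array, was the one where C59 was not the lower group in the mean, with 5.89 and 3.94 after DMSO and 5.05 and 5.82 after C59.

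**Figure D3:**
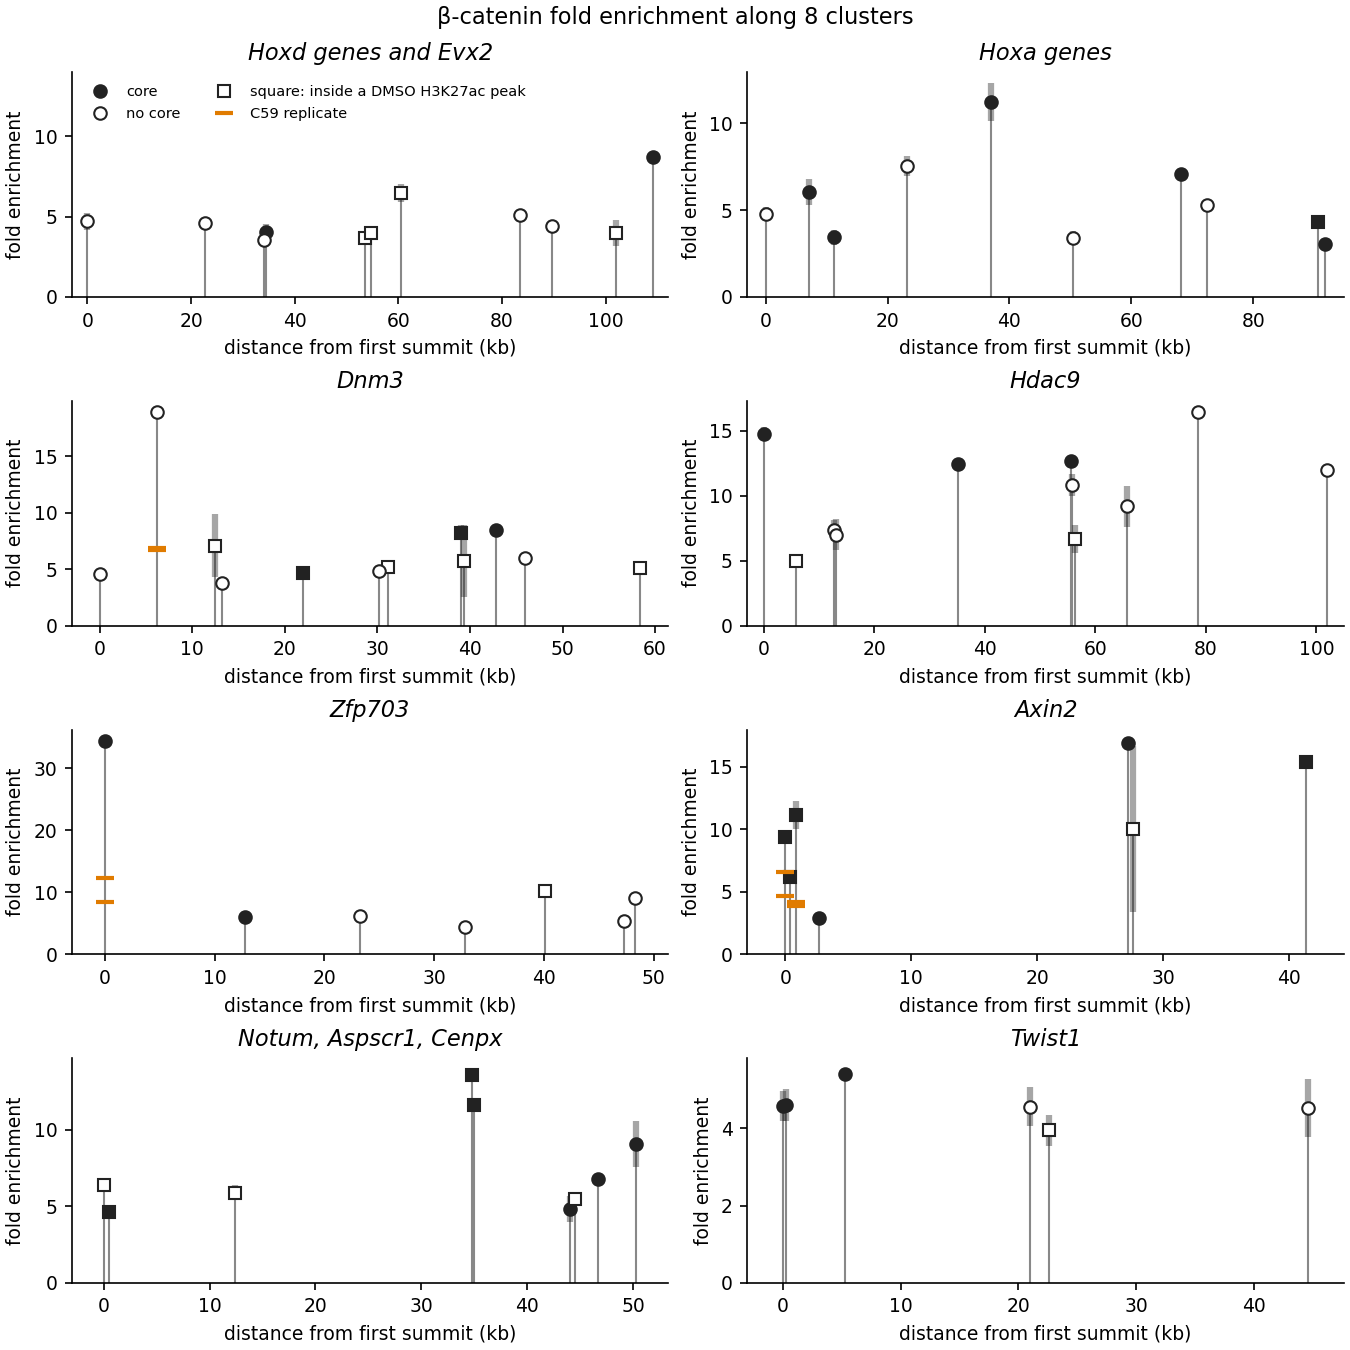
Fold enrichment (vertical axis) against distance from the first summit of the cluster in kb (horizontal axis) for 8 clusters named in the text. Markers are the mean of 2 DMSO replicates and grey bars their range. Filled markers have a TCF/LEF core in the 200 bp window centred on the summit, and squares lie inside a DMSO H3K27ac peak. Orange dashes are C59 replicates where a peak held the position, which in these clusters occurred in Dnm3, Zfp703 and Axin2.

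Most clusters lay in or beside few genes. Of the 150 clusters, 92 overlapped a protein-coding gene (61.3%, Wilson 95% interval 53.3 to 68.8%), namely 74 with 1 gene and 18 with more, whereas 58 overlapped none; the share was 61.2% when the 3 clusters were left out. In 45 clusters every summit was intronic. In 14 clusters at least 1 gene lay wholly inside, 42 genes in all. The 132 overlapped genes (0.608% of 21728 protein-coding genes) had a median length of 66.2 kb compared with 17.4 kb for all, and a long gene offers more room for a cluster. Together with the nearest gene on either side of each cluster, 376 genes were reached (1.73%). A nearest gene is the closest one that does not overlap the cluster, so the cluster itself may lie in another gene. Among the gene lists below, a share is to be read against these values.

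The Hox genes, which pattern the proximodistal and anteroposterior limb axes, were the most densely covered list. Of 39 Hox genes, 18 were overlapped (46.2%) and 20 were overlapped or nearest (51.3%), all in the Hoxa and Hoxd loci. They belong to only 2 clusters, so that these genes are not independent cases. The Hoxd cluster (chr2:74651277-74760351) was the longest, with 11 summits in 10 peak regions from beside Evx2 to the intergenic region before Hoxd1. It held 13 and 16 summits in the DMSO replicates and 0 in both C59 replicates. The strongest, at its Hoxd1 end, had a fold enrichment of 8.42 and 9.03. The Hoxa cluster (chr6:52154015-52245880) held 10 summits over 91.9 kb, and 12, 14, 0 and 0 summits in DMSO replicates 1 and 2 and C59 replicates 1 and 2. The Hoxa summits lay mainly near TSSs, 9 of 10 within 1 kb, whereas 4 of 11 did at Hoxd. A core was found at 6 of 10 Hoxa and 2 of 11 Hoxd summits. Although the Hoxa span held 34 and 33 H3K27ac summits in the DMSO replicates, 1 of its 10 β-catenin summits was inside a DMSO H3K27ac peak. No cluster overlapped or flanked a Hoxb or Hoxc gene.

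Transcription factors of limb patterning formed the next list. Of 42 genes, 4 were overlapped (9.52%), namely Meis2, Msx1, Shox2 and Twist1, and 11 were overlapped or nearest (26.2%), which adds Irx3, Lmx1b, Prrx1, Tbx15, Tbx18, Tbx2 and Twist2. Twist1, a basic helix-loop-helix factor of the limb mesenchyme, was overlapped by a cluster of 6 summits with a highest fold enrichment of 5.85. A second cluster lay 622 kb away inside Hdac9, a histone deacetylase gene, with 11 summits over 101.9 kb. All 11 were intronic, and they were stronger, up to 18.8. Summit counts at Hdac9 were 11 in both DMSO replicates and 0 in both C59 replicates. Shox2, required for the proximal limb skeleton, was overlapped by 1 cluster of 7 summits and was the nearest gene of 2 more, 227 and 526 kb away. Meis2, a factor of the proximal limb, was overlapped by a cluster of 6 summits and flanked by one of 7 summits at 195 kb. Every summit of the latter was in an intron of a gene other than Meis2.

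The other genes of this list were reached from outside. Prrx1, a marker of limb mesenchyme, had a cluster of 8 summits at 31.2 kb. Lmx1b, which specifies dorsal identity, had one of 8 summits at 42.8 kb, in which 1 summit was still inside a C59 peak. The cluster towards Lmx1b overlapped Mvb12b. The cluster of 11 summits between Cep162 and Tbx18 was 292 kb from Tbx18 and had 9, 11, 0 and 1 summits in the 4 libraries. Tbx2 lay 77.0 kb from a cluster of 8 summits, and Twist2 30.6 kb from one of 7. Every summit of the cluster towards Tbx2 was in an intron of a gene other than Tbx2. Tbx15 and Irx3 were the nearest genes beyond the span at 577 and 168 kb, distances at which the nearest gene need not be the regulated one. Every summit of these clusters lay inside a protein-coding gene other than Tbx15 or Irx3.

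Of 57 genes of the WNT pathway, Axin2 and Notum were overlapped (3.51%) and Tcf7l2 was nearest, together 5.26%. Notum encodes a secreted enzyme that inactivates WNT ligands. Its cluster (chr11:120660677-120711005) ran on through Aspscr1 and Cenpx and held 9 summits, with 8 and 10 in the DMSO replicates and 0 in both C59 replicates. A core was present at 6 of 9 summits, 8 cores in all. Apart from chr11:120661225, which lay outside protein-coding genes, these 6 summits lay in genes other than Notum. The strongest summit, in an intron of a gene other than Notum, had a fold enrichment of 13.1 and 13.99 in the DMSO replicates. The Axin2 cluster (chr11:108920428-108961787) likewise had cores at 6 of 7 summits and 8 cores. With the Hoxa cluster, these were the clusters with the most core-bearing summits. Tcf7l2, a TCF/LEF factor gene, lay 153 kb from a cluster of 6 summits. Ror2, a receptor of WNT5A outside the list, was overlapped by the third longest cluster, with 9 summits over 93.8 kb (10, 9, 0 and 0 in DMSO replicates 1 and 2 and C59 replicates 1 and 2).

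Few clusters touched the other signaling pathways, but their lists are short. The shares of genes reached in the BMP, FGF and Hedgehog lists were above the 1.73% of all protein-coding genes, and each share rests on 2 genes. In the BMP list, 0 of 20 genes were overlapped. Bmp4 and the antagonist gene Grem1 were nearest (10%), at 176 and 140 kb from clusters of 6 summits each. Every summit of the cluster towards Grem1 lay in an intron of a gene other than Grem1, whereas the cluster towards Bmp4 overlapped no protein-coding gene. In the FGF list of 17 genes, Dusp6, a feedback phosphatase of FGF signaling, was overlapped and Fgfr1 was nearest at 122 kb, together 11.8%. The strongest summit of the Dusp6 cluster, at chr10:99299073, lay outside protein-coding genes. It was 93 bp from the nearest TSS of any gene type, which need not be that of Dusp6. Its fold enrichment was 16.9 and 18.7 after DMSO and 5.24 in C59 replicate 1, with no peak in C59 replicate 2. In the Hedgehog list of 11 genes, the co-receptor gene Gas1 was nearest to 2 clusters, at 27.02 and 154 kb, and the receptor gene Ptch1 to 1, at 206 kb. Together these genes made up 18.2% of the list. The cluster towards Ptch1 overlapped 2010111I01Rik and Fancc. None of 19 chondrogenic genes was reached. Of 12 cell cycle genes, Mycn (8.33%) was nearest to 2 clusters, of 11 summits at 101.3 kb and of 8 at 216 kb. Of 82 ribosomal protein genes, given for contrast, Rplp1 and Rps24 were nearest (2.44%).

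Several clusters lay close to one another. When clusters at most 500 kb apart were joined, 39 of them fell into 16 runs, of which 7 held 3 clusters. The run with the most summits in its clusters began at Hoxd and passed Mtx2, with 25 summits in clusters and 40 summits in all over 726 kb. The run ending at Zfp703 had 23 in clusters and 40 in all over 658 kb, and the run in and beside Lrmda, whose nearest gene on one side was Zfp503, had 22 and 42 over 770 kb. Tenm4, a large transmembrane protein gene, was overlapped by 3 clusters, as was Lrmda, while Auts2 and Dnm3 were overlapped by 2 each. Dnm3, a dynamin gene, held the largest cluster not found after C59, of 12 summits over 58.4 kb, with 12 summits in both DMSO replicates and 2 and 1 in the C59 replicates. By chromosome, the number of clusters was highest on 1, 2, 3, 8 and 9, with 11 each, and 19 and X had 1 each. Of all summits these chromosomes held 1168, 1249, 1053, 928 and 850, and 19 and X held 406 and 231. The numbers of clusters are not scaled to summits or chromosome length.

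The densest clusters besides the 3 named above lay at Igf1, a growth factor gene (6 summits over 9.49 kb, 6.33 per 10 kb), and between Dph6 and BC052040 (6 over 9.53 kb, 6.30 per 10 kb). Both had 4 peak regions only, so that several of their summits share a region. The fifth longest cluster overlapped Dclk1 and Gm21954, with 7 summits over 89.8 kb. The remaining members of the 10 largest clusters were the regions between Slc38a6 and Tmem30b (82.4 kb, 9 and 11 summits after DMSO), Mycn and Ddx1 (57.9 kb, 7 and 10) and Opa1 and Hes1 (67.5 kb, 8 and 11), each with 11 summits in the consensus list and 0 in both C59 replicates. Hes1 is a transcriptional repressor gene downstream of Notch. These 3 regions overlapped no protein-coding gene.

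The features that the selection did not use were then compared between clusters of 6 or more, clusters of 2 to 5 and single summits. A TCF/LEF core was found at 280 of 1091 summits in clusters (25.7%, Wilson 95% interval 23.2 to 28.3%), at 28.6% of all summits, at 27.5% in clusters of 2 to 5 and at 30.2% of single summits. Without the 3 clusters the share was 26.6%. In windows 2 kb to either side of the summits in clusters the core occurred in 9.07%. The interval for clusters of 6 or more overlapped that for clusters of 2 to 5 (26.5 to 28.5%) and lay below that for single summits (29.2 to 31.3%), although without the 3 clusters it overlapped both (24.04 to 29.4%). At least 1 core-bearing summit was present in 128 clusters and 3 or more in 47, whereas 22 clusters had none. Over the whole spans the core occurred 4.85 times per 10 kb, compared with 4.99 times over the chromosomes. Intervals here cover counting error only, and they are too narrow because summits of a cluster share their surroundings.

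Other short words, gave shares near those of all summits. They were searched on both strands in the same windows. CAGCTG was found at 16.4% of summits in clusters and 18.8% of all, TAATTA at 13.3% and 14.8%, CATAAA at 24.2% and 23.3%, and AAACAG at 24.9% and 23.9%. Leaving out the 3 clusters gave 17.1%, 13.9%, 25.3% and 25.5%. None of these words contains the TCF/LEF core or is contained in it.

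Summits in clusters lay more often in introns than other summits. Of the summits in clusters, 14.7% (12.7 to 16.9%) were less than 1 kb from a TSS, against 16.3% of all, and without the 3 clusters the share was 11.9%. Single summits were near a TSS in 18.05%. Introns held 46.0% (43.1 to 49.0%) of summits in clusters and 38.9% of all, exons 4.58% and 6.31%, and 49.4% and 54.8% lay outside protein-coding genes. With the 3 clusters left out, introns held 46.6%, exons 4.02% and the rest 49.3%. In 89 clusters no summit was near a TSS.

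**Figure D4:**
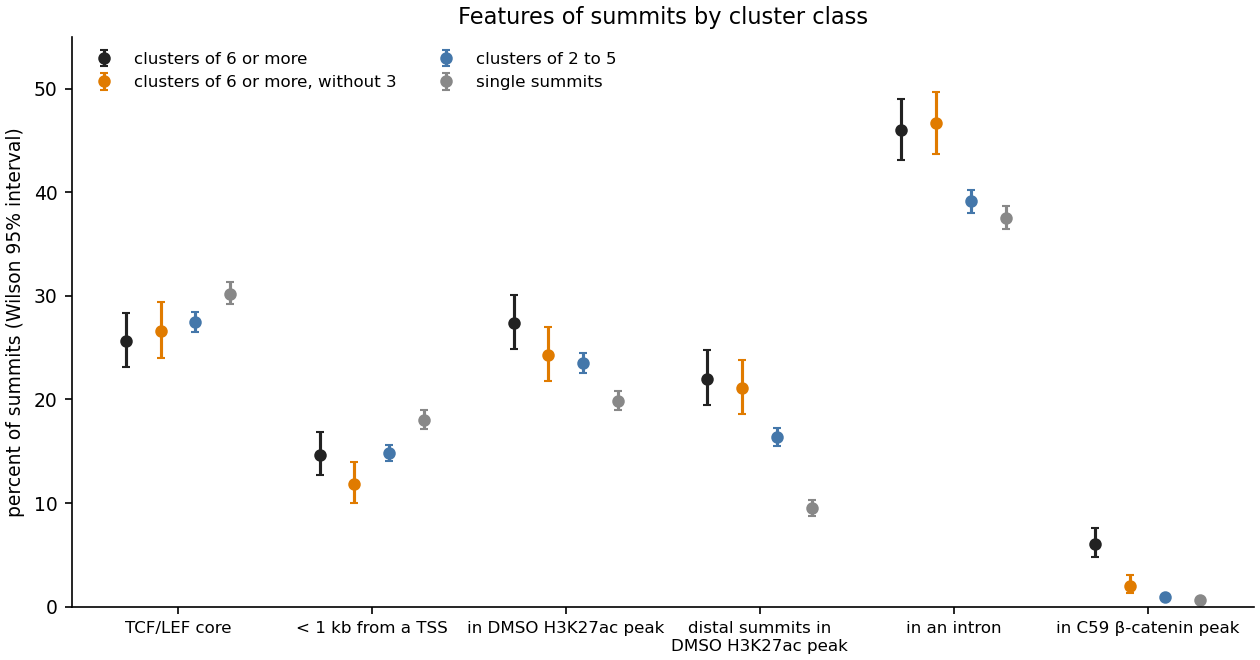
Percent of summits (vertical axis) with each of 6 features (horizontal axis), for summits in clusters of 6 or more, the same without the 3 clusters also found after C59, clusters of 2 to 5, and single summits. Points are shares and bars Wilson 95% intervals, which cover counting error only; among distal summits the share in DMSO H3K27ac peaks was 22.0% in clusters and 9.51% for single summits.

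Distal summits in clusters were more often acetylated than single distal summits. A DMSO H3K27ac consensus peak held 299 of 1091 summits in clusters (27.4%, 24.8 to 30.1%), against 22.1% of all, 23.5% in clusters of 2 to 5 and 19.9% of single summits. Without the 3 clusters the share was 24.3% (21.8 to 27.02%). Among distal summits, 1 kb or more from a TSS, it was 22.0% (19.5 to 24.8%), or 21.1% (18.6 to 23.8%) without the 3 clusters, against 16.4% in clusters of 2 to 5 and 9.51% of single summits. Among summits near a TSS the order was the other way, with 58.8% in clusters, or 48.4% without the 3, and 67% of single summits. Summits of a cluster can share an H3K27ac peak, which single summits cannot. C59 H3K27ac peaks held 29.4% of the summits in clusters, or 26.4% without the 3, and 23.0% of all.

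Clusters varied widely in this mark. In 44 clusters no summit was inside a DMSO H3K27ac peak, and in the chromosome 14 cluster at Gm21738 all 9 were. Besides the 3 clusters found after C59, the highest counts were 6 of 12 summits at Dnm3, 6 of 9 at Notum, 6 of 8 at Sertad4 and 6 of 8 in the region between Ubash3b and Sorl1. The regions between Slc38a6 and Tmem30b and between Mycn and Ddx1 had 0 of 11.

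The comparison of C59 with DMSO within the spans asked whether acetylation moved together with β-catenin, and H3K27ac took no part in the selection. H3K27ac summits within the 150 spans numbered 772 and 826 in the DMSO replicates and 843 and 744 in the C59 replicates, so the groups overlapped. The mean difference, C59 minus DMSO, was −5.5 summits (two-sided exact permutation test over 4 libraries, p = 1), in a design that cannot give a p below 0.33. Per 10000 summits of the library, the values were 219 and 218 for DMSO and 227 and 225 for C59, a difference of 7.02 in the other direction (exact p = 0.33), so the sign depended on the scaling. Without the 3 clusters the difference was −12 summits (exact p = 1). β-Catenin summits within the same spans went from 954 and 1050 to 78 and 74.

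**Figure D5:**
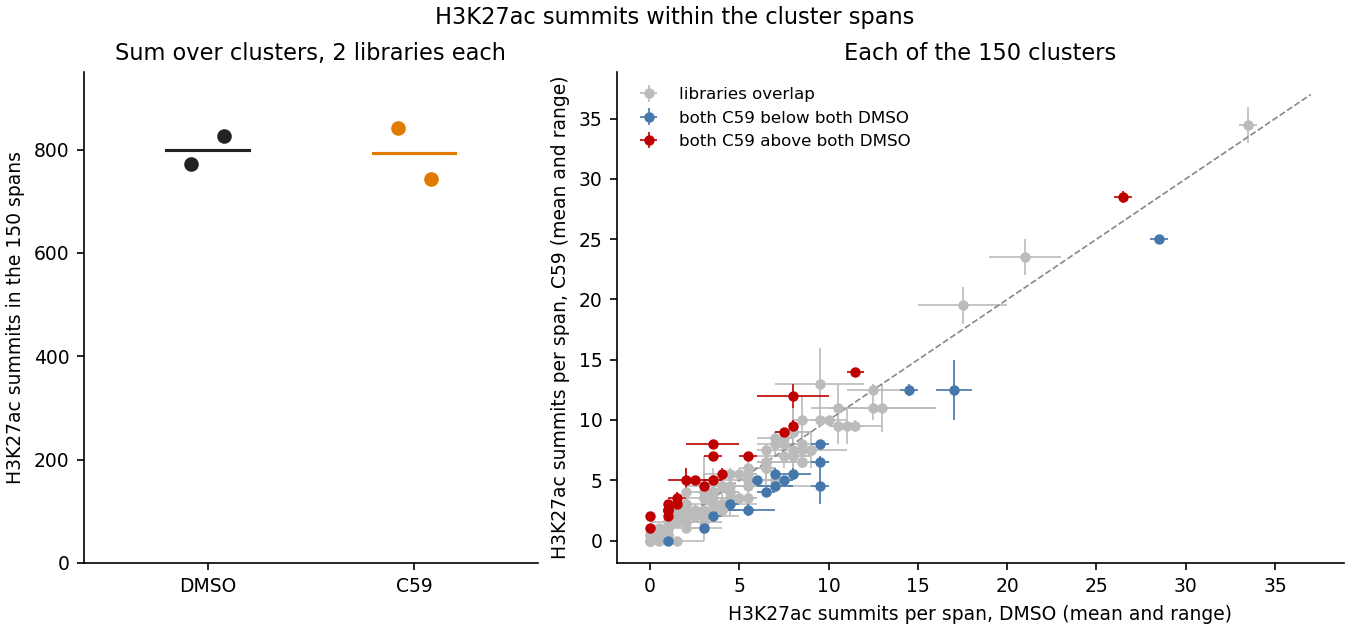
Left, H3K27ac summits within all 150 spans, points for the 2 libraries of each treatment and lines for their mean; right, mean and range of the C59 libraries (vertical axis) against those of the DMSO libraries (horizontal axis), one point per cluster, with the diagonal dashed. In 17 clusters both C59 libraries were below both DMSO libraries and in 22 both were above.

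In single clusters both directions occurred. Both C59 libraries had fewer H3K27ac summits than both DMSO libraries in 17 of 150 clusters (11.3%), against 4.57% of all 3263 spans of 2 or more summits, and more in 22 (14.7%), against 4.69%. The chromosome 9 and chromosome 17 clusters also found after C59 are among the 22 and none of those 3 clusters is among the 17. Spans of 2 or more are shorter, a median of 10.498 kb against 47.6 kb, and 40.3% of them hold no H3K27ac summit in any library, against 2.67% of the 150 clusters, so the shares are not alike in what they could show and nothing is read from their difference. The Notum cluster had 10 and 9 H3K27ac summits after DMSO and 6 and 3 after C59. Twist1 had 9 and 7 against 6 and 5, and Hoxd 29 and 28 against 25 and 25. In the other direction, the cluster towards Tcf7l2 had 2 and 5 against 8 and 8, the Meis2 cluster 3 and 3 against 5 and 4, and the cluster between Mycn and Ddx1 with 11 summits had 1 and 4 against 5 and 5. The second cluster between Mycn and Ddx1, of 8 summits, went the other way, with 4 and 5 after DMSO and 3 and 3 after C59. A single cluster with 2 libraries per treatment cannot pass a test.

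At the β-catenin summits themselves, 15 of 1091 (1.37%) were inside H3K27ac peaks of both DMSO replicates and of neither C59 replicate, against 0.698% of all summits. The reverse held for 18 (1.65%), against 0.852%. The first group lay in 14 clusters and the second in 18, with 1 cluster, at Ephb2, in both. Of the 15, 2 were at the Notum cluster, and others were near Zfp703, at Igf1 and at Bcor; a core was present at 6. Of the 18, 2 had a core, and they included summits at Meis2, Msx1 and Trps1. The consensus lists gave the same direction for 12 of the 15 and 12 of the 18.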

How the data were processed

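The libraries analysed were 8 ChIP-seq libraries, 2 replicates each of β-catenin and H3K27ac after DMSO or C59, while 4 input samples without a peak list were not analysed here. Per the labels and the study's methods, the authors trimmed reads (cutadapt 4.1 in the submitters' processing notes), mapped them to mm10 (Bowtie2 2.4.5), dropped alignments of low mapping quality and called peaks with MACS2 2.2.7.1. The deposited lists give for each summit its fold enrichment, a ratio of coverage over the background expected at its position from the same library. They also give −log10 p and −log10 q values, computed by the authors with the peak caller and without the input. To make a consensus list, the authors took duplicates out with Picard 2.27.4, pooled both replicates at equal depth and kept summits inside peaks of both. Hence no consensus value has a spread of its own, and replicate values were read from the replicate lists, as the nearest summit of a peak that held the position. Neighbouring summits can share such a value.

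The methods also name a filter on blacklisted regions, which was not repeated here. Summits on chromosomes 1 to 19 and X were joined at gaps of up to 25 kb, and clusters of 6 or more were kept. Genes and TSSs came from GENCODE M21 and sequence from GRCm38.p6, with 200 bp windows centred on the summit. The lists hold no counts of reads, so depth was solved from fold and p-value at peaks with −log10 p up to 250, and no count model was used. H3K27ac summits within the spans were compared with a two-sided exact permutation test over 4 libraries. The study's methods call the replicates biological and state that embryos came from several litters, but no source used here ties a ChIP library to a litter. The p of the permutation test is the share of the 6 groupings of the libraries that gave a difference at least as large. It takes account of the spread between these libraries only. Shares are given with Wilson 95% intervals, which cover counting error only. Steps were tested on simulated data and run with Python 3.11.15, numpy 2.4.6, pandas 2.3.3 and scipy 1.17.1.

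Named were the 10 clusters with the most summits, the 5 densest, the 5 longest, those with a summit inside a C59 consensus peak, the one with the strongest summit, and those that overlap or flank a gene of the lists. Clusters named for their H3K27ac or for runs of clusters, the limb bud genes checked for H3K27ac, and the second set of sequences were chosen after their values were seen. The clusters, gene lists and tests were chosen with earlier results of these data known. Alternatives were other gaps, minimum sizes, windows, limits and single replicates.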

Additional observations from a re-analysis of the deposited data

How the results depend on the processing

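How many clusters there are depended on the settings of the rule. A gap of 10 kb left 20 clusters with 160 summits, of which 21.3% had a core, 27.5% were near a TSS, 47.5% were in DMSO H3K27ac peaks and 31.3% in C59 β-catenin peaks, and 50% of these clusters overlapped a gene. A gap of 50 kb gave 371 clusters with 3154 summits (TSS 11.6%, H3K27ac 23.1%, C59 β-catenin 2.89%). A minimum of 5 summits gave 271 clusters with 1696 summits, and a minimum of 8 gave 47 with 443 (TSS 18.3%, H3K27ac 33.6%, C59 β-catenin 12.2%). Counting peak regions left 78 clusters with 633 summits, and summits with a fold enrichment of 5 or more left 69 with 477 (TSS 9.85%, H3K27ac 24.7%). Windows of 100 and 400 bp gave a core at 18.6% and 33.3%. A TSS limit of 2.5 kb gave 22.0%, TSSs of protein-coding genes gave 9.35%, and H3K27ac peaks extended by 1 kb held 46.8%. Leaving out a replicate gave 202 to 350 clusters, 1513 to 2709 summits, a core at 24.4 to 25.8%, a TSS at 13.3 to 13.7%, H3K27ac at 23.0 to 24.5%, C59 β-catenin at 3.17 to 7.42%, and a gene overlap of 62.4 to 63.4%. DMSO replicate 1, when left out, moved the number of clusters to 350 and the share in C59 peaks to 3.17%. Without the clusters also found after C59, an alternative chosen after seeing the data, the shares were 11.9% near a TSS, 24.3% in H3K27ac and 2.01% in C59 β-catenin peaks. The cause of these shifts was not tested.

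The difference in H3K27ac summits, −5.5, changed sign per 10000 summits of the library (7.02) and in kb of the spans covered (1.94), and ranged from −55 to 44 when a library was left out, being 44 without C59 replicate 2 and 21.5 without DMSO replicate 2. With the replicate block it was −5.5 (exact p = 1), with pairs of 71 and −82. The deviations of same-numbered libraries had a correlation of −0.123 over the 150 clusters. With 2 libraries per group this cannot tell whether the numbers pair the libraries. With the numbers crossed, added after seeing the data, it was −5.5 (exact p = 1). With 2 libraries per group no p below 0.33 is possible, and peak lists do not show changes of signal within peaks that stay called.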
